A study of Mus musculus with 33 samples.

Results

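Genes of erythroid differentiation and haem synthesis were followed in lymphoid organs of mice that drank nicotinamide (NAM, a form of vitamin B3). The members were chosen by name, as the rows of the gene table whose symbol was one of 41 listed genes, and 40 of the 41 had a row among the 56414 rows of the table. Ahsp was not analysed here. The members fall into 7 early genes (transcription factors and receptors), 12 late membrane genes, 10 late haem genes and 11 others with a row. All mice were tumour-free C57Bl/6, and the labels name no transgene and no other agent. They were either left untreated or given 0.5% NAM in the water for 1, 3 or 14 days, and polyadenylated RNA was sequenced. The 13 libraries labelled lymph node comprise 3 controls without NAM and 2, 4 and 4 libraries after 1, 3 and 14 days of NAM, and the 20 libraries labelled spleen comprise 5 per group. The labels give no age and do not say whether an animal gave both organs or whether replicates came from separate animals, so p-values measure the spread between these libraries.

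Red cells form from progenitors that switch on Gata1, Klf1 and the erythropoietin receptor, divide while they take up iron through the transferrin receptor, and then fill with haemoglobin and build the spectrin skeleton and its membrane anchors before they lose the nucleus. Haem is made by a chain of enzymes that begins and ends in the mitochondrion, and its first enzyme has a form used by erythroid cells alone, Alas2. In mice, unlike in adult humans, the red pulp of the spleen makes red cells throughout life, whereas lymph nodes do not.

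Most markers of the organs went against the tissue labels. Of 6 genes of lymph node stroma and vessels, 5 had higher means under the spleen label, Madcam1 being the exception, and of 6 of spleen stroma 4 had higher means under the lymph node label, with Nr2f2 the other way and Pdx1 at 0 under both. Glycam1, which marks the high endothelial venules of lymph nodes, read 108167 to 214210 normalised read counts in the libraries labelled spleen and at most 12.4 in those labelled lymph node. Spic, the factor of red pulp macrophages, read 6117 to 10491 in the libraries labelled lymph node and 774 to 1295 in those labelled spleen. The spleen mesenchyme factors Tlx1 and Nkx2-5 were read in all 13 libraries labelled lymph node, at 167 or more, and Nkx2-5 had no read under the spleen label. The groups are therefore called by their labels throughout, with no claim as to which organ they hold. Libraries labelled lymph node held 30424968 to 46733974 reads, and those labelled spleen 18325061 to 54830743. Replicate 1 of the 1-day group labelled lymph node stood apart, with 121859 summed normalised counts on 10 pancreatic genes against 628 to 1270 in the other 12 libraries of the label. In tissue RNA, fewer cells of a type and less RNA per cell cannot be told apart.

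The starts of 6 members are shown for the short motifs they hold. RefSeq gave windows of 300 bases, 250 before the start site and 50 from it on, for 31 members (build GRCm38.p6). Both strands were searched for letters that GATA factors bind (AGATAA or, with a final G, AGATAG, and likewise TGATAA or, with a final G, TGATAG), for CCNCACCC, bound by Klf1 and its relatives and including CCACACCC, and for TGAGTCA, bound by NF-E2. Windows of 21 of the 31 members (67.7%) held a GATA motif, against 33% of all 27025 genes with a window. A gene may have several windows, and members had more of them (45 for 31 members, against 32851 for all genes), so by window the motif was in 22 of 45 (48.9%), against 29.8% of all windows. By role these were 4 of 6 early, 8 of 9 membrane, 3 of 8 haem and 6 of 8 other members. CCNCACCC was found in 6 members (19.4%, against 18.4% of all genes) and TGAGTCA in 3 (9.68%, against 5.95%). The counts describe letters, not binding. Below are Gfi1b, which passed the test at each NAM duration, Klf1, the membrane genes Epb42 and Rhag with the largest falls among members with a window, Alas2, and the Pklr window that holds a motif. Each runs 5′ to 3′ on the strand of its gene, with the motifs in capitals.
Gfi1b chr2:28621933-28622232 (minus strand): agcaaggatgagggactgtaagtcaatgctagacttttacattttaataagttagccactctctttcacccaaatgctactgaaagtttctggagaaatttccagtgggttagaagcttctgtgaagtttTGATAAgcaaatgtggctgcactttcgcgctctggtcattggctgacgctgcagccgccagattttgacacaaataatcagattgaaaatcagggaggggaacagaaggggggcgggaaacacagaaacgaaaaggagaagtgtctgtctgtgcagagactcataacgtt
Klf1 chr8:84901732-84902031 (plus strand): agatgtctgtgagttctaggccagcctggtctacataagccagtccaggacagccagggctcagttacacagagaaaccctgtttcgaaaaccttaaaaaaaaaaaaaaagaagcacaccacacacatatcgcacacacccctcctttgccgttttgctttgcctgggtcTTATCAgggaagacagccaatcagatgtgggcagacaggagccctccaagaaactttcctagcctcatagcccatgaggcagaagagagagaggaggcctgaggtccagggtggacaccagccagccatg
Epb42 chr2:121036828-121037127 (minus strand): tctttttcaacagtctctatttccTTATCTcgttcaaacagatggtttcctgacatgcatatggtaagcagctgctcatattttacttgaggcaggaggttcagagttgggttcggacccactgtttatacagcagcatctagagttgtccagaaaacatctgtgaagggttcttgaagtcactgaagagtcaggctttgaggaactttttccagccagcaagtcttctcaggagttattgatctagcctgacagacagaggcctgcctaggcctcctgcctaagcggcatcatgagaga
Rhag chr17:40810899-40811198 (plus strand): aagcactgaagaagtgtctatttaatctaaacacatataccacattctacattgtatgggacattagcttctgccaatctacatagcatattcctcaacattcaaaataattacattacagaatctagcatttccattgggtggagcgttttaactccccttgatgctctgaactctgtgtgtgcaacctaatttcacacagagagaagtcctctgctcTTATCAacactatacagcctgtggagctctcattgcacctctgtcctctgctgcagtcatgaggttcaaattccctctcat
Alas2 chrX:150547167-150547466 (plus strand): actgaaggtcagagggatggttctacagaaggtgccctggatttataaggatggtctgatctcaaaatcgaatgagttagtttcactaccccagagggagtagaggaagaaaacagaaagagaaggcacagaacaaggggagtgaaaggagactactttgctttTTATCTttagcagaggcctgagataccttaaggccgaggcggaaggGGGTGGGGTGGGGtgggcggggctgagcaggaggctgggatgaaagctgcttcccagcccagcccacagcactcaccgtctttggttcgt
Pklr chr3:89135892-89136191 (plus strand): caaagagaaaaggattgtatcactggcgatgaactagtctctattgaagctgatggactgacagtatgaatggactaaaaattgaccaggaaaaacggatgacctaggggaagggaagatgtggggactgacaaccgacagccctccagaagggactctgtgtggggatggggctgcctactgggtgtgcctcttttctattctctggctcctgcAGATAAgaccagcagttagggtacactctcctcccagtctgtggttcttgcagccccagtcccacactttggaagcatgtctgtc
The capitals in Gfi1b, Klf1 and Rhag are TGATAA on either strand, and those in Epb42 and Pklr are AGATAA. Alas2 carries AGATAA and 2 overlapping matches to CCNCACCC, the latter joined in a single run of capitals. The GATA motif began 120 bases before the start site in Gfi1b, 80 in Klf1, 226 in Epb42, 31 in Rhag, 86 in Alas2 and 35 in Pklr.

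Under the lymph node label, erythroid transcripts were lower after 3 and 14 days of NAM. At 3 days 33 of 40 members were lower (limma, adjusted p under 0.05), against 165 of 18215 genes tested (0.906%), and 0 members were higher, against 0.335% of genes. At 14 days 17 members were lower, against 0.681% of genes. At 1 day a single member, Gfi1b, was lower, against 0.329%. At an unadjusted p under 0.05 there were 13 of 40 members at 1 day, against 2726 of the 18215 genes. Of the 40 log2 fold changes at 1 day 38 were below 0, against 9120 of all genes. The median log2 fold change of the members was -0.43, -1.85 and -1.52 after 1, 3 and 14 days, while that of all genes was within 0.01 of 0 each time. The 3 comparisons share the 3 untreated libraries and are not independent.

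**Figure D1:**
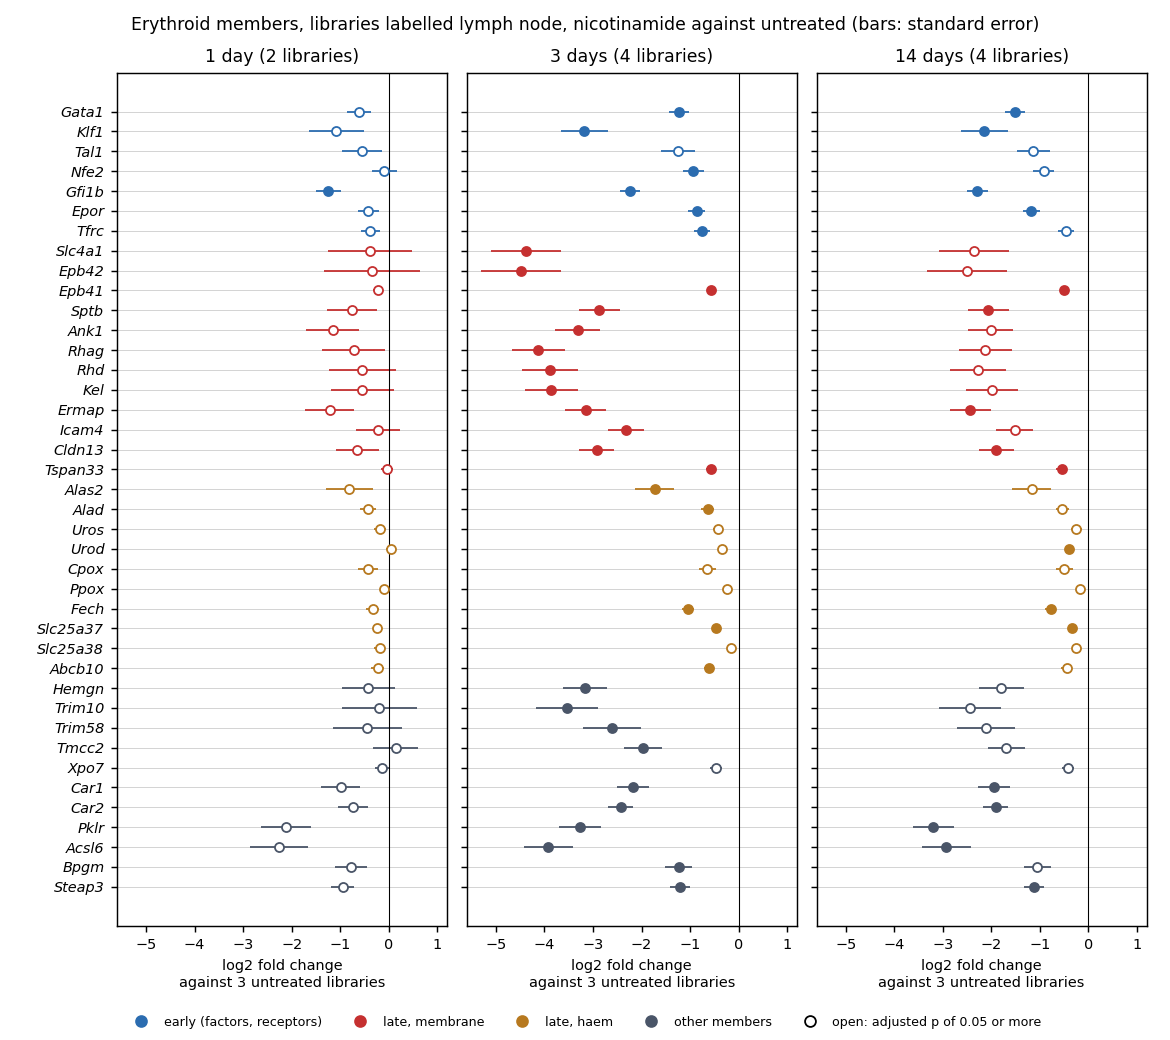
Log2 fold change of each of the 40 members against the untreated group at 1, 3 and 14 days in the libraries labelled lymph node, with standard errors as bars, colour for the role and filled points for an adjusted p under 0.05. Most points lie to the left of 0. At 3 days the red membrane genes have the lowest median of the role groups, although Epb41 and Tspan33 lie nearer to 0.

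Every library at 3 days lay below every untreated library for 39 of 40 members, which held for 7.25% of all genes, and Slc25a38 was the exception. At 14 days 38 members were separated in this way (6.02% of all genes) and at 1 day 15 (15.5%, with 2 treated libraries). Of the 33 members lower at 3 days, 22 passed the threshold under every alternative analysis in which they were tested, and the count itself ranged from 24 to 33 when a library was left out. The 14-day count rested more on the controls. It dropped to 7 without untreated replicate 2 and to 11 without untreated replicate 3. All 40 log2 fold changes were below 0 at 3 and at 14 days.

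Of the 7 early genes, 6 were lower at 3 days and 4 at 14 days. Gata1, the master factor of erythroid and megakaryocyte cells, read 315, 611 and 361 in the controls, then 265 and 271 after 1 day, 173.5, 154, 193 and 185 after 3 days and finally 148, 100.2, 150 and 187 after 14. None of the treated libraries reached the untreated ones, and the 3-day and 14-day libraries also lay below both 1-day libraries. Its log2 fold change was -1.22 ± 0.21 (SE) at 3 days (adjusted p = 0.00527) and -1.52 ± 0.21 at 14 days (adjusted p = 0.00247).

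Gfi1b, a zinc-finger repressor of the same lineages, was the only member called at every duration. It read 256, 460 and 243 in the controls, then 135 and 123 after 1 day, 63.0, 48.6, 73.7 and 75.4 after 3 days and finally 57.1, 61.3, 57.2 and 73.9 after 14. The 1-day libraries thus formed a step between the untreated and the longer treatments, and no library of 3 or 14 days reached them. The log2 fold changes were -1.24 ± 0.25 (adjusted p = 0.0242), -2.23 ± 0.21 (adjusted p = 0.000164) and -2.29 ± 0.21 (adjusted p = 5.92e-05). The 1-day call was lost with array weights, with the replicate block (adjusted p = 0.05395, where Bpgm passed instead) and without untreated replicate 2. A fit without either 1-day library leaves 1 in that group and cannot show how firm the call is.

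Klf1, which activates the adult globin and membrane genes, had the largest fall of the early genes at 3 days. It read 386, 798 and 418 in the controls, then 179 and 319 after 1 day, 119, 20.3, 40.1 and 90.8 after 3 days and finally 65.0, 132, 94.9 and 203 after 14. The log2 fold change was -3.18 ± 0.48 at 3 days (adjusted p = 0.00213) and -2.14 ± 0.48 at 14 days (adjusted p = 0.0486), and the 14-day call held in only 7 of 18 alternatives, up to an adjusted p of 0.328.

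Epor, the erythropoietin receptor, read 261, 444 and 385 in the controls, then 267 and 263 after 1 day, 188, 157, 209 and 233 after 3 days and finally 186, 141, 131.5 and 176 after 14. It fell by 0.86 ± 0.18 on the log2 scale at 3 days (adjusted p = 0.0227) and by 1.17 ± 0.18 at 14 days (adjusted p = 0.00474). The 14-day call was kept under all 18 alternatives, whereas the 3-day call was lost in 4, without untreated replicate 2 or 3 or without 3-day replicate 1 or 2 (adjusted p up to 0.185). Tfrc, the transferrin receptor, which dividing cells of many kinds use, changed less. Its values were 370.5, 444 and 319 in the controls, then 235 and 354 after 1 day, 254, 226, 169 and 242 after 3 days and finally 254, 245, 316 and 277 after 14. The fall was 0.76 ± 0.16 at 3 days (adjusted p = 0.0303, lost in 5 of 18 alternatives), and at 14 days it had a log2 fold change of -0.46 (adjusted p = 0.251).

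Nfe2, the blood-cell subunit of NF-E2, fell at 3 days (-0.93, adjusted p = 0.0465), a call kept in 7 of 18 alternatives. Tal1, a partner of Gata1 in stem and erythroid cells, read 57.5 to 87.1 untreated and 17.7 to 42.3 at 3 days, with no overlap and a log2 fold change of -1.25 that missed the threshold (adjusted p = 0.0985). The early genes had median log2 fold changes of -1.22 and -1.17 at 3 and 14 days.

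At 3 and 14 days the membrane genes had the largest median fall of the role groups. All 12 were lower at 3 days, with a median log2 fold change of -3.23, after 0 of 12 at 1 day (median -0.54; 2 at an unadjusted p under 0.05, against 2726 of the 18215 genes). Slc4a1, the anion exchanger and the most abundant membrane protein of red cells, read 1786, 2996 and 4685 untreated and 1837 and 2729 at 1 day, within the untreated range. At 3 days it read 634, 32.7, 102 and 175, and at 14 days 347, 986, 236 and 1323. The fall at 3 days was 4.38 ± 0.72 on the log2 scale (adjusted p = 0.00375), a ratio of 0.048, and the 14-day libraries straddled the 3-day range and the gap up to the untreated one (-2.35 ± 0.72, adjusted p = 0.163).

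**Figure D2:**
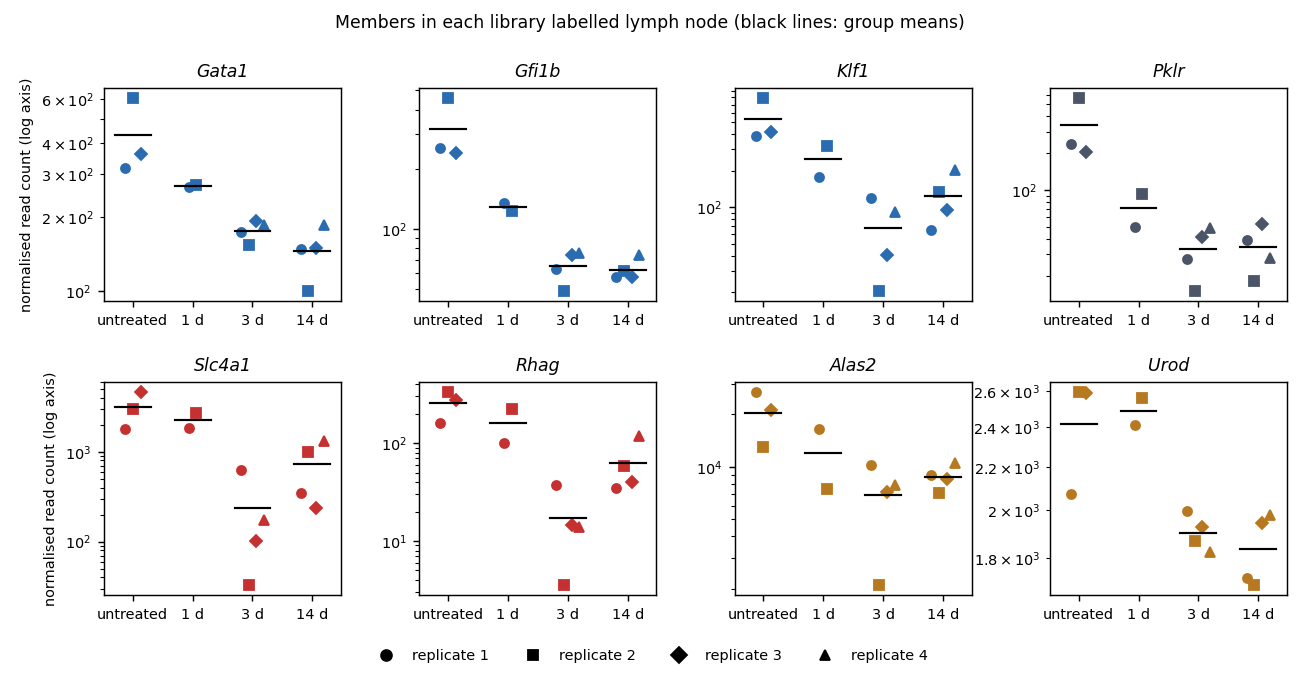
Normalised read counts (log axis) of 8 members in each of the 13 libraries labelled lymph node, with the group mean as a line and a marker shape per replicate number. The numbers were not taken to pair libraries. Both 1-day libraries of Gata1, Gfi1b and Pklr lie below the untreated ones, those of Slc4a1 lie within the untreated range, and 1 of the 2 of Rhag lies below it. Slc4a1 and Rhag have their lowest means at 3 days.

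Epb42, which ties the anion exchanger to the skeleton, had the largest fall of all members at 3 days. It read 213, 341 and 446 in the controls, then 175 and 359 after 1 day, 87.3, 1.77, 9.10 and 16.2 after 3 days and finally 27.7, 85.5, 24.0 and 164 after 14. The log2 fold change at 3 days was -4.48 ± 0.83 (adjusted p = 0.00989), and it missed the threshold without untreated replicate 2 or untreated replicate 3 (adjusted p up to 0.0598). Rhag, the Rh-associated glycoprotein and a gas and ammonium channel, read 162, 336 and 277 in the controls, then 101 and 223 after 1 day, 37.6, 3.54, 14.6 and 13.85 after 3 days and finally 34.9, 58.75, 40.0 and 118 after 14. It fell by 4.13 ± 0.54 at 3 days (adjusted p = 0.000991) under every alternative, and at 14 days all 4 libraries stayed below the untreated ones (-2.13, adjusted p = 0.0826).

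The blood-group genes Rhd and Kel followed the same course. Rhd read 589, 1107 and 1000.02 untreated and 199, 22.1, 35.5 and 69.2 at 3 days (-3.89, adjusted p = 0.0019), and Kel 367, 604 and 568 untreated and 116, 13.3, 22.8 and 35.4 at 3 days (-3.86, adjusted p = 0.00115). Among the skeleton genes, Sptb (beta-spectrin) had -2.87 and Ank1 (ankyrin) -3.32 at 3 days, both called. Ermap, an erythroid membrane protein of the immunoglobulin family, read 224.5, 568 and 298 in the controls, then 118 and 177 after 1 day, 72.9, 14.2, 35.5 and 50.8 after 3 days and finally 47.55, 61.3, 50.3 and 96.8 after 14. It was lower at 3 days (-3.15 ± 0.42, adjusted p = 0.000991) and at 14 days (-2.43 ± 0.42, adjusted p = 0.0115, lost without untreated replicate 2). Epb41 and Tspan33, which many cell types express, fell by only 0.57 each at 3 days, Tspan33 in 16 of 18 alternatives. At 14 days 5 of 12 membrane genes were lower, namely Epb41, Sptb, Ermap, Cldn13 and Tspan33, with a median of -2.04 over the 12. Epb41 was kept in all 18 alternatives, Tspan33 in 16, Cldn13 in 14 and Sptb in 12 (adjusted p up to 0.209).

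The haem genes had the smallest median changes of the role groups. Of 10, 5 were lower at 3 days (Alas2, Alad, Fech, Slc25a37 and Abcb10) and 3 at 14 days (Urod, Fech and Slc25a37), with medians of -0.54 and -0.42. Alas2 read 27042, 12950 and 21304 in the controls, then 16557 and 7490 after 1 day, 10294, 2095, 7148 and 7875 after 3 days and finally 8956, 7092, 8523 and 10579.8 after 14. The 3-day and 14-day libraries all lay below the lowest untreated library. The fall of 1.73 ± 0.40 at 3 days (adjusted p = 0.0452) was lost in 7 of 18 alternatives, among them the fits without any single untreated library and without 3-day replicate 3 (adjusted p up to 0.187), and at 14 days it was -1.17 ± 0.40 (adjusted p = 0.231).

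Fech, which inserts iron into protoporphyrin as the last step, fell at both of the longer durations. It read 2238, 2048 and 2622 in the controls, then 1856 and 1780 after 1 day, 1212, 892, 1175 and 1202 after 3 days and finally 1327, 1202, 1240 and 1609 after 14. The log2 fold changes of -1.04 ± 0.12 at 3 days (adjusted p = 0.000313) and -0.78 ± 0.12 at 14 days (adjusted p = 0.00474) passed under all 18 alternatives. The enzymes between these ends, which most cells use, had small changes. Alad fell by 0.63 at 3 days, Uros, Urod, Cpox and Ppox had log2 fold changes from -0.64 to -0.24 that did not pass, and Urod passed at 14 days with -0.40 (adjusted p = 0.0366, lost in 7 of 18 alternatives). Of the transporters, Slc25a37 (mitoferrin) and Abcb10 fell by 0.47 and 0.61 at 3 days, and Slc25a38, the glycine carrier, had -0.16. Slc25a37 was kept in 12 of 18 alternatives at 14 days (adjusted p up to 0.158, lost with the replicate block among others), and at 3 days Abcb10 was kept in 17 and Alad in 14 (adjusted p up to 0.172).

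Of the 11 other members 10 were lower at 3 days and 5 at 14 days. Pklr, the pyruvate kinase of red cells and liver, had the largest fall of any member called at 14 days. It read 237, 569 and 205.5 in the controls, then 50.4 and 94.0 after 1 day, 27.6, 15.04, 41.9 and 49.2 after 3 days and finally 39.6, 18.1, 52.6 and 27.9 after 14. The 1-day libraries were already less than any untreated library (-2.12 ± 0.51, adjusted p = 0.0517), and the log2 fold changes of -3.27 at 3 days (adjusted p = 0.000959) and -3.20 at 14 days (adjusted p = 0.00239) held under every alternative.

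Acsl6, an acyl-CoA synthetase, had a similar course at few counts. It read 62.3, 166.5 and 44.2 in the controls, then 14.1 and 16.8 after 1 day, 8.84, 1.77, 3.64 and 4.62 after 3 days and finally 5.55, 9.50, 8.01 and 16.97 after 14. The log2 fold changes were -2.26 (adjusted p = 0.08), -3.92 (adjusted p = 0.000843) and -2.93 (adjusted p = 0.0114, lost without untreated replicate 2). Car1 and Car2, carbonic anhydrases that red cells hold in large amounts, were lower at 3 days (-2.18 and -2.43) and at 14 days (-1.94 and -1.91). Steap3, the reductase that frees iron in endosomes, was lower at both times (-1.202 and -1.13), and without untreated replicate 2 neither it nor Car1 passed at 14 days (adjusted p = 0.119 and 0.105). The genes of terminal maturation Trim10, Trim58, Tmcc2 and Hemgn overlapped the untreated libraries at 1 day, fell by 1.97 to 3.54 at 3 days, and did not pass at 14 days, with log2 fold changes from -2.44 to -1.69. The 3-day call of Trim58 was kept in 10 of 17 alternatives (adjusted p up to 0.181, lost with the replicate block among others), and that of Trim10 in 17 of 18. Xpo7, an exportin, had -0.46 at 3 days (adjusted p = 0.08).

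Setting early against late genes side by side, the early group had medians of -0.55, -1.22 and -1.17 at 1, 3 and 14 days, and the late group, membrane and haem genes together, -0.37, -1.38 and -0.97. Within the late group the membrane genes had -0.54, -3.23 and -2.04. All genes tested had medians within 0.01 of 0. The late group as a whole held 17 of 22 members lower at 3 days and 8 of 22 at 14 days, and the 5 late genes that did not pass at 3 days were all haem genes. These are counts and medians of a list and were not tested as such.

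Between 3 and 14 days 0 of 40 members passed (limma; 2 of 18215 genes did, 0.0110%), and the edgeR and DESeq2 fits also gave 0. At an unadjusted p under 0.05 there were 13 members, against 5.84% of genes, and 8 of the 13 were membrane genes. All 12 membrane genes had higher means at 14 days (median +1.17), with Slc4a1 at +2.03 ± 0.66 (adjusted p = 0.622) and Rhag at +2.00 ± 0.50 (adjusted p = 0.312), and the groups overlapped for every member. The early genes had a median of +0.01, with 3 of 7 below 0. From 1 to 3 days, a comparison added after the data were seen, 10 members were lower, against 0.318% of genes, of which 6 were membrane genes (Rhag, Rhd, Kel, Slc4a1, Cldn13 and Icam4) and 0 were early genes (5 of 7 at an unadjusted p under 0.05, against 7.75% of all genes). This count dropped to 0 without 3-day replicate 3, to 1 without 3-day replicate 2 and to 5 without 3-day replicate 4. With only 2 libraries at 1 day, a fit without either of them leaves 1 in that group and cannot show how firm the count is.

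**Figure D3:**
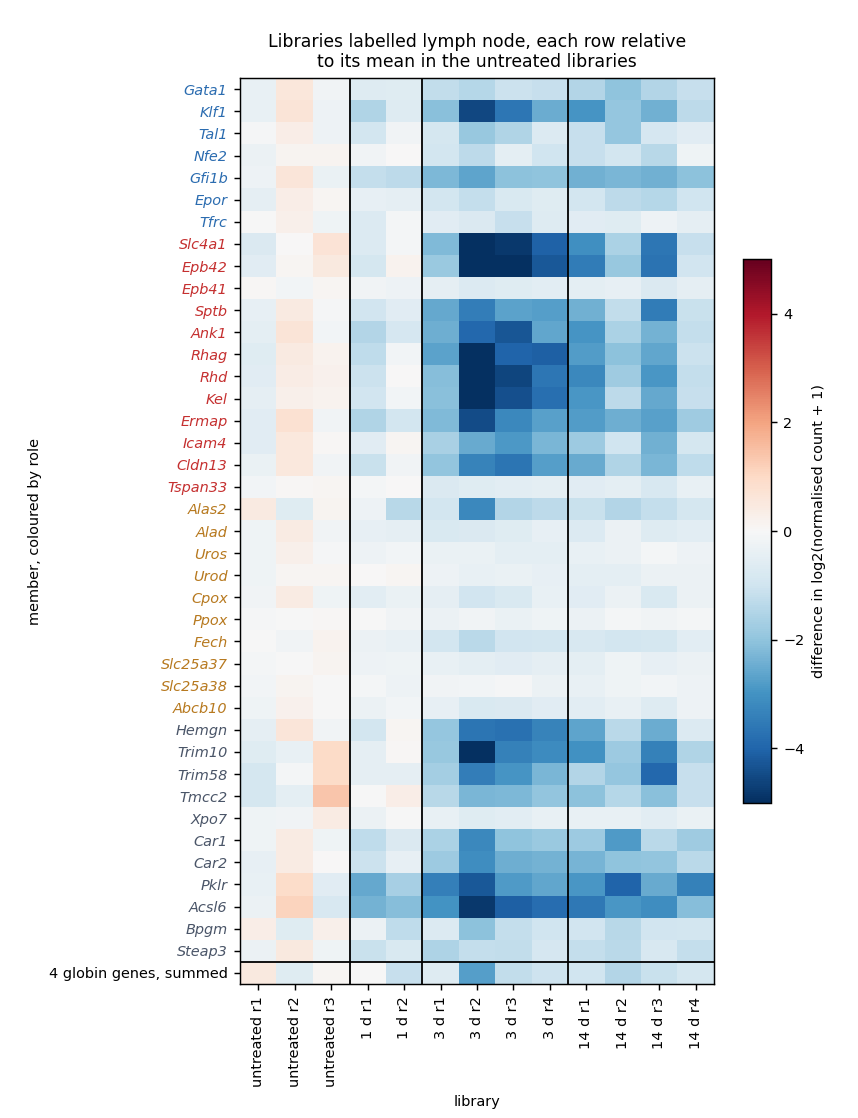
Difference of each member's log2(normalised count + 1) from its mean in the 3 untreated libraries, by library labelled lymph node, with member names coloured by role and the summed globins in the bottom row. Blue deepens at 3 days, most in replicate 2, and the membrane rows are paler in 14-day replicates 2 and 4.

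Within a group the same library was often the highest or the lowest across members. Untreated replicate 2 was the highest of its group for 26 of 40 members, among them every early gene but Nfe2, and untreated replicate 1 the lowest for 30. Untreated replicate 3 was highest for 12, among them Tmcc2 at 825, 1059 and 3902 and Trim10 at 850, 989 and 2483 in replicates 1 to 3. Alas2 and Bpgm, the enzyme that makes bisphosphoglycerate, ran the other way, with Bpgm at 5310, 2768 and 4940 and the lowest value in replicate 2. The sum of 4 globin genes had that order too, at 3029083, 1434134 and 2334499. Within the 3-day group replicate 1 was highest for 28 members and replicate 2 lowest for 27, and within the 14-day group replicate 4 was highest for 29. Without 3-day replicate 2, the library with the lowest membrane counts, 27 members were still lower at 3 days.

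The globins themselves, which are not members, had log2 fold changes from -1.80 to -1.35 at 3 days and from -1.27 to -1.06 at 14 days, and Hbb-bt at 3 days passed (adjusted p = 0.0378). Their summed level was 318731 to 1376880 at 3 days and 785114 to 1173999 at 14 days, against 1434134 to 3029083 untreated.

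Other genes of the same pathways fell too. Of 50 further erythropoiesis genes tested, 19 were lower and 0 higher at 3 days, and 12 were lower at 14 days. Membrane genes made up 8 of the 19, of 11 tested (median -1.69). Of 9 genes of erythropoietin signalling and iron sensing, only Tfr2, which binds iron-loaded transferrin and the erythropoietin receptor, passed. It read 166, 368 and 157 in the controls, then 67.0 and 71.6 after 1 day, 36.5, 31.0, 40.1 and 54.6 after 3 days and finally 49.1, 46.7, 89.2 and 48.9 after 14, and was called at each duration (-1.61, adjusted p = 0.0335, then -2.39, adjusted p = 0.000587, and -1.90, adjusted p = 0.00501). Progenitor factors gave 2 of 10 at 3 days, Myb (-0.43, adjusted p = 0.0307) and Sox6 (-2.42, adjusted p = 0.0368), and maturation genes 6 of 11 (median -0.47).

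Markers of other cells were also lower at 14 days in several lists, mostly without passing the test. Megakaryocyte genes, which share Gata1, Gfi1b, Tal1 and Nfe2 with the erythroid lineage, had 0 of 12 lower at 3 days (median -0.22) and 1 of 12, Gp5, at 14 days (median -0.63; 11 of 12 at an unadjusted p under 0.05, and all 12 below 0). An unadjusted p under 0.05 was found for 14.8% of all genes at 3 days and 11.8% at 14 days. The summed level of the megakaryocyte genes was 15012 to 15679 in the controls, 9820 to 18045 after 3 days and 8740 to 13053 after 14. Cell division genes had 1 of 10 lower at 3 and at 14 days (medians -0.31 and -0.38; 5 and 6 of 10 at an unadjusted p under 0.05), with sums of 15489 to 18015 untreated and 12225 to 16578 at 14 days. Red pulp macrophage genes gave 3 of 10 higher at 1 day (161 of the 18215 genes were), none at 3 days and 1 lower at 14 days. Their sum was 152393 to 163169 untreated and 116101 to 142627 at 14 days. Neutrophil genes had 3 of 12 lower at 14 days (median -1.06, 8 of 12 at an unadjusted p under 0.05) and a median of +0.29 at 3 days. At 1 day their median was +0.77, with 0 of 12 called and 7 of 12 at an unadjusted p under 0.05 (2726 of the 18215 genes). Their sum was 13694 to 25930 untreated and 27714 to 38449 at 1 day. Mast cell and basophil genes, with which Gata1 is also shared, had 0 of 10 lower at 3 and 14 days (1 of 10 and 4 of 10 at an unadjusted p under 0.05), with medians of -0.22 and -0.62 and all 10 below 0 at 14 days. The part of any of these in the fall of the members was not tested.

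Under the spleen label 10 members had means under the filter of 10 normalised counts, and others, Gata1, Alas2, Sptb and Ank1 among them, were read in every library at low values. Rhag and Pklr had 0 reads in all 20 libraries, which allows up to 3 reads each, and 8 members never passed 10 normalised counts (Slc4a1, Epb42, Rhag, Rhd, Kel, Trim10, Trim58 and Pklr). Klf1 read 0 to 22.7, whereas Alas2 read 17.3 to 221, Sptb 29.7 to 108 and Ank1 22.4 to 67.8. The members that many cells use were well read, with Epb41 at 5392 to 7719, Xpo7 at 2441 to 3046 and Urod at 871 to 1550. The labels were scaled separately, so these levels are set beside those of the lymph node label with that limit.

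**Figure D4:**
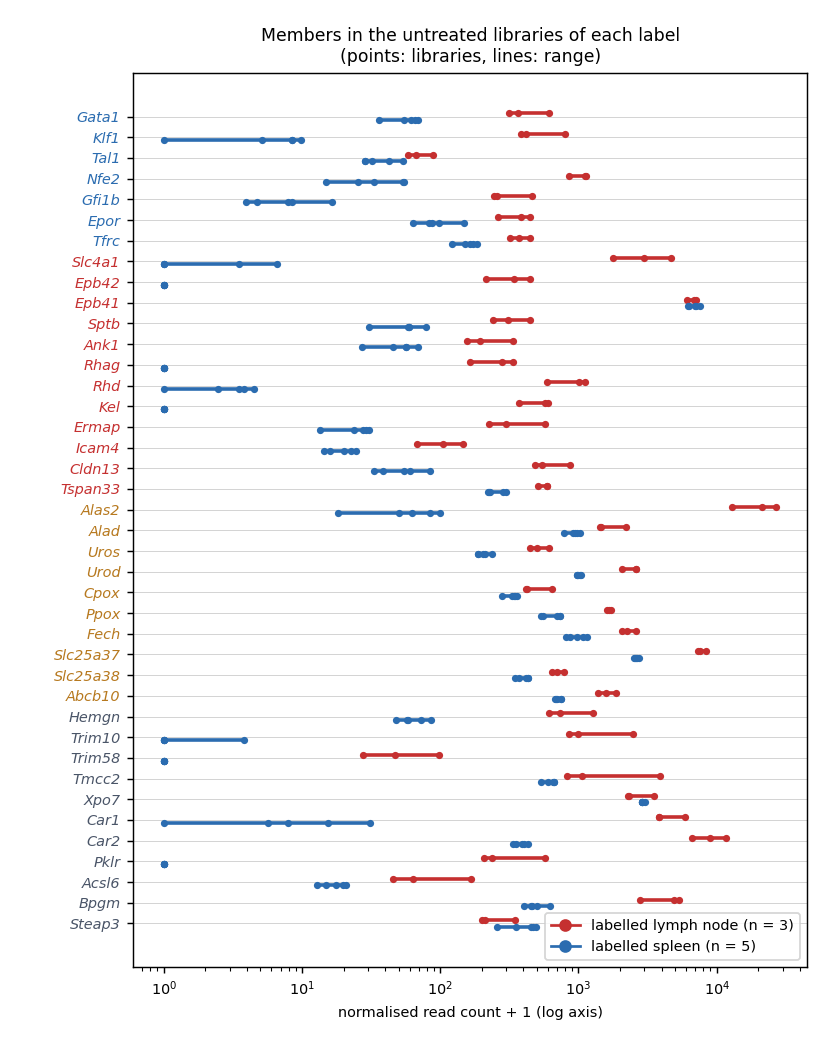
Normalised read count plus 1 (log axis) of each member in the untreated libraries labelled lymph node (n = 3) and spleen (n = 5), with points for libraries and lines for ranges. Epb42, Rhag, Kel, Trim58 and Pklr sit at 0 counts in the 5 libraries labelled spleen, while Epb41 and Xpo7 are similar under both labels.

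Of the 30 members above the filter under the spleen label, 7 passed at 1 day, in a comparison where many genes did. The 3 lower ones were Tal1, Hemgn and Tmcc2, against 8.05% of genes, and the 4 higher ones were Tspan33, Uros, Urod and Abcb10, against 8.56%, so the members' share was not far from the background. Tal1 and Hemgn were called in 6 and 5 of 20 alternatives (adjusted p up to 0.123 and 0.132), and Tmcc2 and Uros in 15 of 21 each. Urod, which makes coproporphyrinogen, read 1051, 992, 1023, 971 and 969 untreated and 1264, 1550, 1375, 1312 and 1253 at 1 day, with no overlap (+0.43 ± 0.09, adjusted p = 0.00451, kept in all 21 alternatives). Abcb10, a transporter of the inner mitochondrial membrane, read 675, 686, 701, 746 and 741 untreated and 818, 1132, 858, 772 and 901 at 1 day (+0.32 ± 0.09, adjusted p = 0.0158; 0.0526 with the 2 groups alone). Replicate 2 at 1 day was highest for both and for Alas2, and it also had the highest sum of 10 adipocyte genes, 599032 against 41798 to 315088 in the other libraries of these 2 groups. The part of adipose RNA in these values was not tested, and without that library 4 members passed. The count also dropped to 3 or 4 without untreated replicate 1, 3 or 5 or 1-day replicate 1 or 4.

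Alas2 under the spleen label read 17.3, 61.2, 48.9, 99.4 and 83.6 untreated and 68.3, 221, 119, 112 and 84.4 at 1 day, and the groups overlapped (adjusted p = 0.0794). Gata1 read 35.1 to 68.2 in the controls, then 45.8 to 75.1 after 1 day, 51.2 to 64.5 after 3 days and 42.3 to 81.8 after 14, with log2 fold changes within 0.11 of 0. At 3 days 0 of 30 members passed (limma; edgeR 0, DESeq2 2), against 5.55% of genes, 5 had an unadjusted p under 0.05, against 22.0% of genes, and 5 passed without 3-day replicate 1. At 14 days 0 passed, as for all genes (0%), and 0 members had an unadjusted p under 0.05, against 2.80% of genes, with edgeR and DESeq2 also at 0.

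The difference between the labels in the NAM effect was tested directly, as the interaction of NAM with the label. Only 30 members were above the filter in both labels, and for the others a change under the spleen label could not be measured. In a fit over the genes above the filter in each label, added after the data were seen, 15 of the 30 passed at 3 days, each with the lower log2 fold change under the lymph node label, against 0.735% of genes in either direction. By role these were 1 of 5 early (Gata1), 6 of 7 membrane, 5 of 10 haem and 3 of 8 other members. The fit over all genes with a mean above the filter called 20 of 39 members (0.544% of genes), and there Gata1 was kept in 4 of 7 alternatives. The 5 further ones, Epb42, Rhag, Kel, Rhd and Pklr, entered it through the lymph node label alone. Car2, read at 331 to 441 under the spleen label, differed by -2.43 ± 0.27 (adjusted p = 6.83e-06), and the widely used Abcb10 by -0.82 ± 0.15 (adjusted p = 0.00466). For these 5 the differences, such as -4.81, -4.13 and -3.86 for Epb42, Rhag and Kel, restate the fall under the lymph node label, and the edgeR fit did not call them (adjusted p up to 1). At 14 days 7 of the 30 passed, against 0.140% of genes, namely Gata1, Epor, Sptb, Ermap, Fech, Tmcc2 and Car2. The fit over all genes also gave 7, with Pklr in place of Fech (0.119% of genes), and Car2 alone of its 7 passed under all 7 alternatives. At 1 day 0 of 30 passed (1.69% of genes), as did 0 of 39 in the fit over all genes (limma; edgeR 0), against 1.55% of genes, and 14 of the 39 had an unadjusted p under 0.05, against 16.4% of genes.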

How the data were processed

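Polyadenylated RNA of 33 libraries, 13 labelled lymph node and 20 labelled spleen, was sequenced by the authors. The deposited values are a signal per gene, read counts divided by the size factor of the library with DESeq2, and the submitters' processing notes name STAR 2.4.0 and the mouse genome mm10. For these libraries filters and strand are not given in the sources used here, so overlapping genes could not be told apart. For its tumour RNA sequencing the paper describes an expression filter and counting over constitutive gene regions. The lowest share of values that were whole multiples of a library's step was 100.0% (tolerance 0.02), and whole reads were recovered from them. The labels had been scaled separately. Of 56414 rows, 30657 had no symbol and 639 several. No replicate pair held identical values.

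Log2(value + 1) was fitted with limma 3.58.1 (R 4.3.3, intensity trend, two-sided), with all 4 groups of a label in the fit and Benjamini-Hochberg adjustment over genes with a mean of at least 10, at a threshold of 0.05. Fold changes on this scale understate the change of low genes. Differences between labels were interaction terms over all 33 libraries, taken as separate animals, which the labels do not state. That fit was repeated, after the data were seen, over the 17147 genes with a mean of at least 10 in each label. Alternatives were pseudocounts of 0.1 and 5, no filter and a filter of 50, TMM scaling, quantile normalisation, array weights, the replicate block, the 2 groups alone, leaving out each library, the study's rule (unadjusted p of 0.05 and 1.5-fold), and tests of the recovered reads with DESeq2 1.42.0 and with edgeR 4.0.16. The paper states the study's rule for its tumour RNA sequencing, not for these libraries, and does not say whether that p was adjusted. The edgeR test at 3 days under the lymph node label called 206 genes, against 226 with limma. The limma test alone was tried on simulated reads in which genes picked at random were raised or lowered. That setting lacks the joint fall of the members, so no conclusion is drawn from it.

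The members, role groups and other lists were chosen with earlier results of these data known. Values are given for Gata1, Klf1, Epor, Tfrc, Alas2 and Slc4a1 in any case, and for the 3 members with the largest called and separated changes in each direction of a comparison; other members were named after their values were seen. Same-numbered replicates correlated from -0.107 to 0.079 under the lymph node label and from -0.496 to 0.468 under the spleen label, so numbers were not taken to pair libraries. Counting limits of 3 reads cover counting error only. Values of some further pathway genes are not reported here.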

Additional observations from a re-analysis of the deposited data

Results flagged for a closer look

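Single libraries lay far from the rest of their group for 3 of 70 sets of a member and a group, where chance gives about 1 in 20. Epb42 read 87.3 in replicate 1 of the 3-day group labelled lymph node, against 1.77 to 16.2 in the other 3 libraries. Sptb read 108 in replicate 2 of the 14-day group labelled spleen, and Urod read 871 in replicate 1 of the 3-day group labelled spleen, against 1193 to 1313 in the other 4.

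The interaction term of NAM with the label passed for 20 members at 3 days and for 7 at 14 days, of which 15 and 6 were above the filter in both labels. At 3 days the differences, lymph node label minus spleen label on the log2 scale, were -1.23 for Gata1, -4.81 for Epb42, -4.13 for Rhag and -3.86 for Kel. At 14 days they were -1.52 for Gata1, -1.35 for Epor, -3.20 for Pklr, -2.87 for Ermap and -2.39 for Sptb. Epb42, Rhag, Kel and Pklr were at or near 0 under the spleen label, so their values restate the fall under the lymph node label.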

How the results depend on the processing

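No called member changed direction under any alternative, and the count at 3 days under the lymph node label, 33, ranged from 24 to 37. The 1-day count of 1 became 3 with a pseudocount of 5 and with edgeR, 4 with the 2 groups alone and with DESeq2, 9 by the study's rule and 0 with array weights. It ranged from 0 to 1 when an untreated library was left out. The 14-day count of 17 was 28 by the study's rule and 7 to 20 when a library was left out, and that between 14 and 3 days, 0, was 11 by the study's rule. The count of 10 from 1 to 3 days was 5 with no filter, 0 with array weights, 23 by the study's rule and 0 to 13 when a 3-day library was left out. Under the spleen label the 1-day count of 7 was 4 by the study's rule, 2 with the 2 groups alone and 3 to 8 when a library was left out, and the 3-day count of 0 was 1 with TMM scaling and by the study's rule, 9 with array weights, 2 with DESeq2 and 0 to 5 when a library was left out. At 14 days it was 0 throughout. The count of members differing between labels was 1 with a pseudocount of 5 at 1 day (0), 33 with array weights at 3 days (20) and 4 with no filter at 14 days (7), and no library was left out in that fit. The cause of these shifts was not tested, beyond the fewer libraries or genes some alternatives use.

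Same replicate numbers were not taken to mark paired libraries, which the labels do not state. With the replicate block, members called under the lymph node label were 1 (Bpgm, with Gfi1b lost), 31 and 18 at 1, 3 and 14 days, 0 between 14 and 3 days and 4 from 1 to 3 days. Under the spleen label they were 6, 0 and 0, and those differing between labels 1, 19 and 4.

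Among the members followed through every alternative, signs turned for uncalled values of Gata1 and Alas2 under the spleen label. Gata1 at 1 day (0.11) ranged from -0.0486 to 0.20 when a library was left out. Gata1 at 3 days (0.01) was -0.0027 with edgeR, -0.012 with DESeq2, and -0.15 to 0.0886, with -0.04 among them, when a library was left out. Gata1 at 14 days (0.01) was -0.0043 with array weights, -0.0034 with edgeR, and -0.15 to 0.10 when a library was left out. Alas2 at 3 days (0.03) was -0.29 with array weights, -0.13 with edgeR and with DESeq2, and -0.36 to 0.25 when a library was left out. Low counts limit the 10 members under the filter in the libraries labelled spleen, whose changes were not tested within that label and whose differences between labels rest on the lymph node label. Without genes under the filter in either label, an alternative added after the data were seen, 0, 15 and 7 members differed between labels at 1, 3 and 14 days.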
